A study of Mus musculus with 20 samples.

Results

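The Wnt pathway genes described here are 60 of the 37994 genes in the developmental table of a single-cell RNA-seq study of the mouse habenula. They were chosen by symbol. They comprise 19 Wnt ligands, 12 receptors (10 Frizzled genes and the co-receptors Lrp5 and Lrp6), 9 genes of the R-spondin axis (Rspo1 to Rspo4, Lgr4 to Lgr6, Znrf3 and Rnf43) and 12 secreted inhibitors. The other members are 4 genes of beta-catenin and its feedback (Ctnnb1, Axin1, Axin2, Nkd1) and 4 transcription factors of the TCF/LEF family. The habenula is a paired structure of the dorsal diencephalon with a medial and a lateral division. Cells were sorted into 384-well plates and sequenced with CEL-seq2, which counts molecules by unique molecular identifiers (UMIs) read near the 3′ end of each transcript. The developmental series came from mice of the Brn3a-tauLacZ line, in which a reporter is placed at the gene for Brn3a (Pou4f1), a transcription factor of habenular neurons. All series plates share this line; the labels do not state the genotype at that gene or the gate of the sort. Embryonic days E11, E13, E15 and E18, postnatal days P4 and P7, and adult mice each had 2 plates, and E12 had 1. A separate E18 set from C57BL/6 mice had 2 plates from the left side, 2 from the right side and 1 from both (E18 in all labels but the title), and it held 59 of the members among 36104 genes. The labels do not say that plates of a stage came from separate animals, so p-values measure the spread between plates, which may be technical.

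Wnt proteins are secreted lipid-modified ligands that bind Frizzled receptors together with Lrp5 or Lrp6. In the canonical branch, binding stops the Axin-containing complex from marking beta-catenin (Ctnnb1) for destruction, and beta-catenin then acts with TCF/LEF factors on target genes, among them the feedback inhibitors Axin2 and Nkd1. R-spondins bind Lgr4, Lgr5 or Lgr6 and hold back the ubiquitin ligases Znrf3 and Rnf43, which otherwise remove Frizzled receptors from the cell surface. The Sfrp and Dkk families and the proteins Wif1, Sostdc1 and Notum are known mainly for limiting Wnt signalling outside the cell. Sfrp and Dkk members are placed among the inhibitors here by symbol, not by a measured activity of each. In the dorsal diencephalon, Tcf7l2 marks the thalamus and habenula and is needed for habenular neurons to form normally.

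Promoter sequence is shown for 5 members that moved in opposite directions over development, as 250 bases upstream of a RefSeq transcription start on GRCm38.p6, 5′ to 3′ on the strand of the gene. Lef1 and Tcf7l2 fell between E11 and P7, while Rspo4, Wnt11 and Fzd1 rose. Capitals mark CTTTGA on either strand (TCAAAG on the strand shown), the core of the sequence that TCF/LEF factors bind. The windows are chr3:131110073-131110322 (plus strand) for Lef1, chr19:55741560-55741809 (plus) for Tcf7l2, chr2:151842677-151842926 (plus) for Rspo4, chr7:98834862-98835111 (plus) for Wnt11 and chr5:4758217-4758466 (minus) for Fzd1.
Lef1: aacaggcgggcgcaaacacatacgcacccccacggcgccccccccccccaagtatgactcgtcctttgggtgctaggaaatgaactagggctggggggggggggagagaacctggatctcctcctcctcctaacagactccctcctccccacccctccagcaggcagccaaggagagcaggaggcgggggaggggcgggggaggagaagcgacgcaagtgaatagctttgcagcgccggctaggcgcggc
Tcf7l2: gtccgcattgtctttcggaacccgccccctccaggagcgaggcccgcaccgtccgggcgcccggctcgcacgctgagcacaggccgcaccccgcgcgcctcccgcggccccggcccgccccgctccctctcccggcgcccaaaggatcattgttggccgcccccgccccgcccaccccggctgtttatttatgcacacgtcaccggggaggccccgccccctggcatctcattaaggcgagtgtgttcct
Rspo4: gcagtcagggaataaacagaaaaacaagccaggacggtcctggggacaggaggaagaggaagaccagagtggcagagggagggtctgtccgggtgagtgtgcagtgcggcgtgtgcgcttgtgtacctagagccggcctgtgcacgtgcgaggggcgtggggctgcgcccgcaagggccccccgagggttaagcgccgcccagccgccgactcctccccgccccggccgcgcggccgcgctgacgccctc
Wnt11: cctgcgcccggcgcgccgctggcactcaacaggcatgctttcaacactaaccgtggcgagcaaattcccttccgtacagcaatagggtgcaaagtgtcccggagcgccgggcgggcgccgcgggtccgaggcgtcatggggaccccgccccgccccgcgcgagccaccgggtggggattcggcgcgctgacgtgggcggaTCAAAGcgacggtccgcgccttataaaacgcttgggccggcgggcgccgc
Fzd1: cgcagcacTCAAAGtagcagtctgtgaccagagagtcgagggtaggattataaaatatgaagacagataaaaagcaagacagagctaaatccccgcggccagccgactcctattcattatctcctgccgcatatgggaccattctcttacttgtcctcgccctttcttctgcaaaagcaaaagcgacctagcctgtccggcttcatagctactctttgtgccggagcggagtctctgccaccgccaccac
Wnt11 held 1 match, starting 50 bases before the transcription start, and Fzd1 held 1, starting 242 bases before it. The Lef1, Tcf7l2 and Rspo4 windows shown held 0 matches. Of the members, 39 had a window in the table, with 49 windows in all, and 5 of these windows (10.2%) held the letters, against 13.8% of 32851 windows over all genes. Those 5 windows belonged to Dkk1, Fzd1, Lef1 (at a further start of the gene), Wnt11 and Wnt5b. Of these, Dkk1 and Lef1 fell from E11 to P7. Axin2, Fzd7, Tcf7, Wnt2 and Wif1 rose and held 0 matches, and Fzd10 fell and held 0. The windows shown therefore do not stand for the members that rose or fell. A match is a string of letters, not evidence of binding.

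Kept cells numbered 56 to 345 per series plate, with 758697 to 7760372 counts in all, and 54 to 333 per plate of the E18 left and right set, with 1849863 to 6586449 counts. Levels are in CPM, the share of a plate's counts scaled to a total of 1000000, over all kept cells of a plate, so fewer cells of a type and less RNA per cell cannot be told apart. Several plates stood apart in cell content. E18 plate 1 had a summed level of 4469 CPM for a list of 10 progenitor markers, against 297 on E18 plate 2, where Hes5 and Mki67 were at 0. Its 10 medial habenula markers summed to 266 CPM against 3833, with Slc18a3 at 0, and its 10 lateral habenula markers to 434 CPM against 376. E13 plate 2 had 3960 CPM of ependymal and choroid markers (only Kl at 0) against 22.7 on E13 plate 1, and 2089 against 1161 CPM of progenitor markers. Adult plate 1, with 56 cells, had 11159 CPM of oligodendrocyte markers against 3066 on adult plate 2. On both E11 plates neuron markers summed to 15190 and 15336 CPM and all 10 were detected, while progenitor markers summed to 953 and 942 and medial habenula markers to 677 and 694. On the P7 plates neuron markers summed to 6119 and 6384 CPM, progenitor markers to 302 and 250, and medial habenula markers to 7135 and 7290, with mural or fibroblast markers at 1107 on P7 plate 1 and 218 on plate 2. Most E11 cells (77.3% and 75.7%) fell in neuron-like clusters and most P7 cells (57.1% and 62.9%) in medial habenula-like ones, with 0 of the other name on either pair of plates. A name counts markers at least 2-fold above all other cells, so P7 cells outside the neuron-like name can still be neurons. The stages compared below thus differ in cluster make-up, and cell type and maturity cannot be told apart in it. The part of these shifts in the changes from E11 to P7 was not tested.

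Of the 60 members, 29 were detected on every series plate and 31 were at 0 on at least 1. By mean level over the 15 plates, 6 members reached at least 100 CPM, 18 lay between 10 and 100, 24 between 1 and 10, and 12 under 1. The 6 were Tcf7l2, Ctnnb1, Rspo3, Lef1, Fzd3 and Lrp6. Among ligands the 4 with the highest mean were Wnt5a, with plate levels from 4.57 to 101 CPM (median 10.5), Wnt4 from 0 to 41.5 (median 7.63), Wnt3 from 3.52 to 29.9 (median 6.59) and Wnt5b from 1.70 to 21.1 (median 5.98). Low ligand levels limit what can be said of them. Wnt8a was seen on 1 plate only, at 0.199 CPM, and Wnt3a, a ligand of the embryonic dorsal midline, stayed at or below 2.12 CPM and was at 0 on E18 plate 2 and on all 6 postnatal plates. A count of 0 on a plate allows a level of up to 0.387 CPM on the deepest plate and 3.95 CPM on adult plate 1. On E18 plate 1, 23 members (38.3%) had their highest level of all 15 plates, beside 20.9% of the 37807 genes detected on any plate. There, 46 members (76.7%) were higher than on E18 plate 2, beside 50.9% of those genes. The part of the plate's cell content in these levels was not tested. For 13 members the highest level was on an adult plate, with no share over all genes to set beside it.

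**Figure D1:**
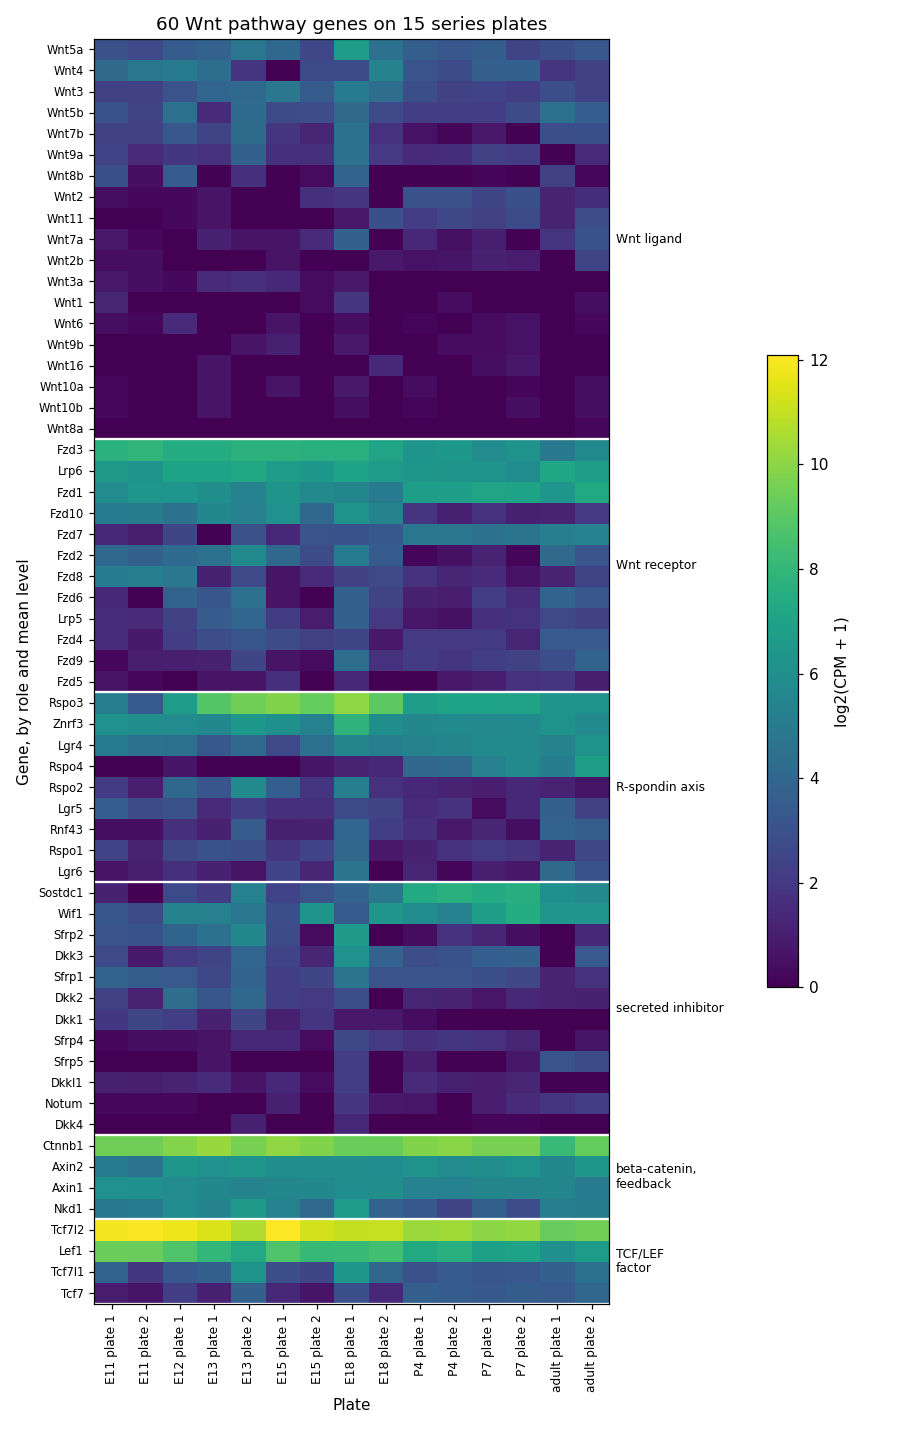
Levels of the 60 members, as log2(CPM + 1), on the 15 series plates in order of stage, grouped by role and ordered by mean level. Tcf7l2, Ctnnb1, Lef1 and Fzd3 are bright on most plates, most ligands are dark, and the column of E18 plate 1 is brighter than that of E18 plate 2 for 46 members.

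The stage comparison asked which members differ between ages, using 14 plates (E12, with 1 plate, enters as a value only). For 12 members counts were too low for the test, namely Dkk4, Dkkl1, Fzd5, Wnt1, Wnt10a, Wnt10b, Wnt16, Wnt2b, Wnt3a, Wnt6, Wnt8a and Wnt9b. Of the 48 tested, 33 differed among the 7 stages in edgeR's quasi-likelihood test at an adjusted p of at most 0.05, which is 68.8%, beside 46.4% of all 17453 genes tested. By role, 10 of 11 receptors were called, 7 of 9 genes of the R-spondin axis, 3 of 4 each of the TCF/LEF factors and the beta-catenin group, and 5 of 10 each of the ligands and inhibitors. Of these calls, 2 of the 10 receptors, 3 of the 7 genes of the R-spondin axis, 1 of the 3 TCF/LEF factors, all 3 of the beta-catenin group, 3 of the 5 ligands and 4 of the 5 inhibitors were lost in at least 1 alternative. From E11 to P7, 19 of 48 members (39.6%) were called, 11 higher and 8 lower at P7, beside 28.6% of all genes (15.4% higher and 13.2% lower). The balance of higher and lower calls was not kept in every alternative fit. The median log2 change of the members tested was 0.19, and that of all genes was 0.03. Calls for 11 of the 19 (Rspo4, Sostdc1, Lef1, Fzd3, Fzd8, Fzd10, Axin2, Tcf7l2, Fzd7, Rspo3, Fzd2) held in every alternative run, and those for the other 8 were lost in at least 1. On data simulated for this comparison, 67% of genes changed 4-fold were recovered and 8% of those changed 2-fold, so smaller changes of members could go uncalled. The changed genes were drawn only from genes above a minimum of counts summed over the plates. These shares are therefore not the recovery for members with few counts, which was not tested. Stage cannot be told apart from sequencing batch, since the labels do not assign plates to sequencing runs.

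Both leading TCF/LEF genes had their highest stage mean at E11 and their lowest in the adult. Tcf7l2 (chr19:55741820-55933654) was at 3785 and 4176 CPM at E11, 3496 at E12, 2715 and 1583 at E13, 4354 and 2464 at E15, and 2031 and 2113 at E18. It was at 1253 and 1335 on P4 plates, 1021 and 1124 at P7, and 630 and 727 on adult plates. The highest single plate was E15 plate 1, and all postnatal plates lay below all embryonic plates. From E11 to P7 its mean went from 3981 ± 276 to 1072 ± 72.8 (SD, n = 2), a log2 change of -1.84 (SE 0.35, edgeR adjusted p = 0.00292). Lef1 (chr3:131110471-131224356), a partner of beta-catenin of the same family, was at 659 and 638 CPM at E11, 429 at E12, 254 and 157 at E13, 434 and 269 at E15, and 281 and 343 at E18. It then read 159 and 189 on P4 plates, 117 and 129 at P7, and 65.9 and 99.5 on adult plates. The E13 plates did not overlap with either E11 plate, and E13 plate 2 was below both P4 plates. Lef1 fell by 1.80 from E11 to E13 (SE 0.33, edgeR adjusted p = 0.0243) and by 2.35 from E11 to P7 (SE 0.33, adjusted p = 0.000544), both on the log2 scale. Tcf7, the third member of the family, moved the other way, from 0.966 and 0.613 CPM at E11 to 9.15 and 10.7 at P7 (log2 change 3.64, SE 0.86, edgeR adjusted p = 0.00973). Endothelial-like cells made up 0 of both E11 plates and 1.23% and 1.36% of the P7 plates. Their part in the rise of Tcf7 was not tested. Tcf7l1, usually a repressor, read 13.5 and 2.86 CPM at E11 and 8.38 and 8.62 at P7, with no call (log2 change 0.10, SE 0.85). It read 72.2 CPM on E13 plate 2 and 82.2 on E18 plate 1, the plates with the most progenitor markers. Astrocyte-like cells made up 11.2% of E18 plate 1 and 0 of E18 plate 2 and both E13 plates. The part of such cells in the Tcf7l1 levels was not tested. With 1 plate left out, the highest adjusted p was 0.235 for Lef1 from E11 to E13 and 0.0906 for Tcf7 from E11 to P7.

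**Figure D2:**
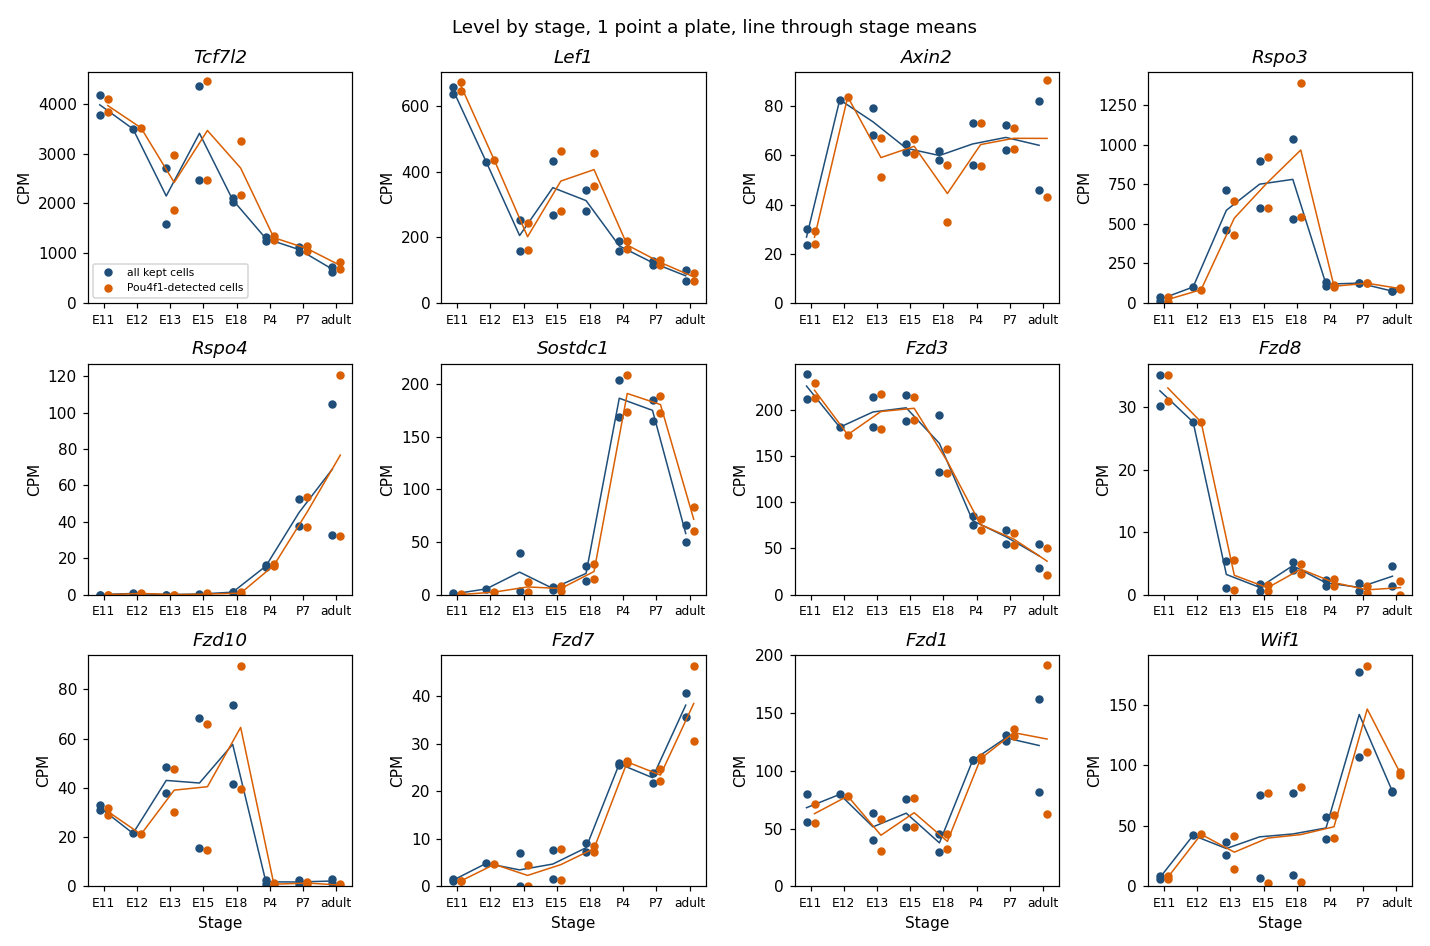
Levels in CPM by stage for 12 members, with 1 point for each plate and a line through the stage means, for all kept cells (blue) and for cells with at least 1 Pou4f1 UMI (orange). Tcf7l2, Lef1 and Fzd3 decline, Rspo3 is high from E13 to E18 only, and Rspo4, Sostdc1, Fzd7 and Fzd1 are higher postnatally than at E18.

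Of the R-spondins, Rspo3 had its highest levels from E13 to E18, and Rspo4 had its highest on postnatal plates. Rspo3 (chr10:29452416-29535867), an amplifier of Wnt signalling, was at 35.6 and 9.81 CPM at E11, 101 at E12, 460 and 712 at E13, 899 and 603 at E15, and 1034 and 529 at E18. It dropped to 108 and 130 on P4 plates, 127 and 124 at P7, and 76.5 and 72.6 on adult plates. No plate of E13 to E18 overlapped with any earlier or later plate. The gene rose by a log2 change of 4.54 from E11 to E13 (SE 0.53, edgeR adjusted p = 0.00272) and fell by 2.46 from E18 to P4 (SE 0.48, adjusted p = 0.00717). At P7 it remained above E11 (log2 change 2.52, SE 0.49, adjusted p = 0.00351). Rspo4 (chr2:151842927-151874668), whose upstream sequence is shown above, was at 0 on both E11 plates and at most 1.51 CPM on any embryonic plate. It read 15.1 and 16.3 CPM at P4, 37.6 and 52.8 at P7, and 33.0 and 105 on adult plates. With 0 counts at E11 and 592 at P7, it was 148-fold higher at P7 when the 2 E11 plates are given the limit of 3 counts (edgeR adjusted p = 0.00015). From E18 to P4 the log2 change of Rspo4 was 3.79 (SE 0.74, adjusted p = 0.00966). Without E18 plate 1 that step was 3.48, with an adjusted p of 0.0753. The receptor Lgr5 fell from 11.2 and 5.92 CPM at E11 to 0.258 and 1.58 at P7 (log2 change -3.20, SE 0.79, adjusted p = 0.0118, up to 0.109 with 1 plate left out). Rspo2 was at 51.6 CPM on E13 plate 2 and 35.9 on E18 plate 1 and at most 15.6 on any other plate, and Rspo1 at 14.8 on E18 plate 1 and at most 7.39 elsewhere. Neither was called from E11 to P7 (log2 changes -0.82, SE 1.18, and 0.07, SE 0.91). Lgr4 and Znrf3, an R-spondin receptor and its target ligase, read 29.2 and 22.7 CPM and 68.2 and 64.2 CPM at E11, and were not called from E11 to P7 either. The call for the fall of Rspo3 from E18 to P4 was lost without P4 plate 1 and also without P4 plate 2.

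Of 11 receptors tested from E11 to P7, 4 fell and 2 rose, all of them Frizzled genes, beside 13.2% of all genes lower and 15.4% higher. Fzd3, a receptor with a known part in axon guidance, declined from 212 and 239 CPM at E11 to 194 and 133 at E18, 75.2 and 84.8 on P4 plates, and 55.2 and 70.0 at P7 (log2 change from E11 to P7 -1.80, SE 0.26, edgeR adjusted p = 0.000665). Fzd8 was highest on the earliest plates, with 30.1 and 35.1 CPM at E11, 27.6 at E12 and at most 5.31 on any plate from E13 on. It fell by 3.48 on the log2 scale from E11 to E13 (SE 0.73, adjusted p = 0.0449) and by 4.67 to P7 (SE 0.74, adjusted p = 0.00102), the first of these with an adjusted p of up to 0.299 when 1 plate was left out. Fzd10 and Fzd2 instead persisted through E18. Fzd10 read 73.8 and 41.5 CPM at E18 and 2.54 and 1.07 on P4 plates (log2 change -4.76, SE 0.69, adjusted p = 0.002). Fzd2 read 30.7 and 9.80 at E18 and 0.170 and 0.460 on P4 plates (log2 change -5.63, SE 0.94, adjusted p = 0.00362). From E11 to P7 both also fell, with log2 changes of -4.07 for Fzd10 (SE 0.67, adjusted p = 0.00133) and -4.08 for Fzd2 (SE 0.82, adjusted p = 0.0041). In the adult Fzd2 read 17.1 and 8.15 CPM, above every P4 and P7 plate. Fzd7 and Fzd1 rose. Fzd7 went from 1.55 and 1.02 CPM at E11 to 21.8 and 23.9 at P7 (log2 change 4.17, SE 0.81, adjusted p = 0.00346). Fzd1 was at 56.0 and 80.1 CPM at E11, 45.1 and 30.1 at E18, 109 and 109 on P4 plates, and 131 and 126 at P7 (log2 change from E11 to P7 0.97, SE 0.33, adjusted p = 0.0495). The E11 to P7 call of Fzd1 was close to the threshold and reached an adjusted p of up to 0.289 with 1 plate left out, and its step from E18 to P4 was 1.76 (SE 0.35, adjusted p = 0.00805, or 0.056 without P4 plate 2). Lrp6, the co-receptor, lay between 57.5 and 150 CPM on all plates and was not called from E11 to P7 (log2 change -0.30, SE 0.20).

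Of the 10 ligands tested, Wnt2 and Wnt11 were the only ones called from E11 to P7, both higher at P7, beside 28.6% of all genes (15.4% higher). Wnt11, a ligand mostly linked to beta-catenin-independent signalling, was at 0 on both E11 plates and at 3.87 and 5.63 CPM at P7. With 0 counts against 62, it was 15.5-fold higher at P7 when E11 is given the limit of 3 counts (edgeR adjusted p = 0.0103). Wnt2 had 3 counts at E11 and 75 at P7, a ratio of 18.7 with a 95% counting interval of 6.17 to 92.8 (edgeR adjusted p = 0.015). Both stayed under 10 CPM on every plate, and with 1 plate left out the adjusted p reached 0.0685 for Wnt11 and 0.124 for Wnt2. Wnt5a, the main ligand of the beta-catenin-independent branch, read 101 and 21.9 CPM on the E18 plates, in order, and 25.5 or less elsewhere, and was not called from E11 to P7 (log2 change 0.41, SE 0.67). Wnt7b, at 4.06 and 4.29 CPM at E11 and 0.773 and 0 at P7, missed the threshold (log2 change -3.15, SE 1.13, adjusted p = 0.0558). Wnt8b was at 6.77 and 0.409 CPM at E11, 10.3 at E12 and 13.6 on E18 plate 1, and at most 3.96 on the other plates (log2 change from E11 to P7 -5.06, SE 2.09, adjusted p = 0.0944).

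Of 10 secreted inhibitors tested from E11 to P7, 3 were higher, 1 lower and 6 not called, beside 15.4% of all genes higher and 13.2% lower. In Pou4f1-detected cells (cells with at least 1 Pou4f1 UMI) 2 of 8 were higher and 2 lower, beside 18.8% and 16.2% of all genes in that fit. Sostdc1 (chr12:36314139-36318452), which encodes an inhibitor of Wnt and BMP signalling that binds Lrp5 and Lrp6, was at 1.16 and 0 CPM at E11, and at 3.41 to 39.3 from E12 to E18. It was at 169 and 204 on P4 plates, 165 and 185 at P7, and 66.0 and 50.1 on adult plates. All 6 postnatal plates lay above all 9 embryonic plates. Its log2 change was 3.48 from E18 to P4 (SE 0.74, edgeR adjusted p = 0.0102) and 8.18 from E11 to P7 (SE 1.01, adjusted p = 0.000224). Wif1, which binds Wnt ligands directly, was at 8.50 and 5.92 CPM at E11 and 107 and 177 at P7 (log2 change 4.33, SE 1.01, adjusted p = 0.00879). Its 2 plates differed widely at E15, 6.52 and 75.2, and at E18, 9.58 and 76.9. Sfrp4 had 3 counts at E11 and 26 at P7, a ratio of 6.49 (95% counting interval 1.99 to 33.5, edgeR adjusted p = 0.0468). Dkk1, an antagonist of Lrp5 and Lrp6, was the inhibitor that fell. Its 38 counts at E11 compared with 0 at P7, 16.9-fold lower when P7 is given the limit of 3 counts (edgeR adjusted p = 0.00667). Dkk1 was at 0 on 5 of the 6 postnatal plates. With 1 plate left out the adjusted p reached 0.0607 for Dkk1, 0.085 for Wif1 and 0.262 for Sfrp4, and that of Sostdc1 from E18 to P4 reached 0.0638. Sfrp1, Sfrp2 and Dkk3 were not called from E11 to P7 and had their highest levels on E18 plate 1, at 24.4, 87.7 and 67.9 CPM.

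Of the 4 genes tested in the beta-catenin group, 1, the target gene Axin2, was called from E11 to P7, beside 28.6% of all genes. It was at 30.1 and 23.5 CPM at E11, 82.6 at E12, 68.2 and 79.1 at E13, and between 46.1 and 82.1 on all later plates. The E11 plates lay below all the others. Axin2 rose by a log2 change of 1.31 from E11 to E13 (SE 0.25, edgeR adjusted p = 0.0321) and stood 1.37 above E11 at P7 (SE 0.25, adjusted p = 0.00232). Nkd1, which restrains Dishevelled and is likewise induced by the pathway, did not follow that course. It read 28.2 and 31.9 CPM at E11, 102 and 12.8 at E18, 8.99 and 4.60 on P4 plates, 12.2 and 6.16 at P7, and 35.6 and 32.6 on adult plates (E11 to P7, log2 change -1.63, SE 0.71, adjusted p = 0.105). Ctnnb1 itself ranged from 296 CPM on adult plate 1 to 1194 on E13 plate 1 and was not called in any stage comparison. Axin1, the scaffold of the destruction complex, read 68.8 and 66.8 CPM at E11 and 44.9 and 43.8 at P7, without a call (log2 change -0.56, SE 0.21, adjusted p = 0.0606).

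**Figure D3:**
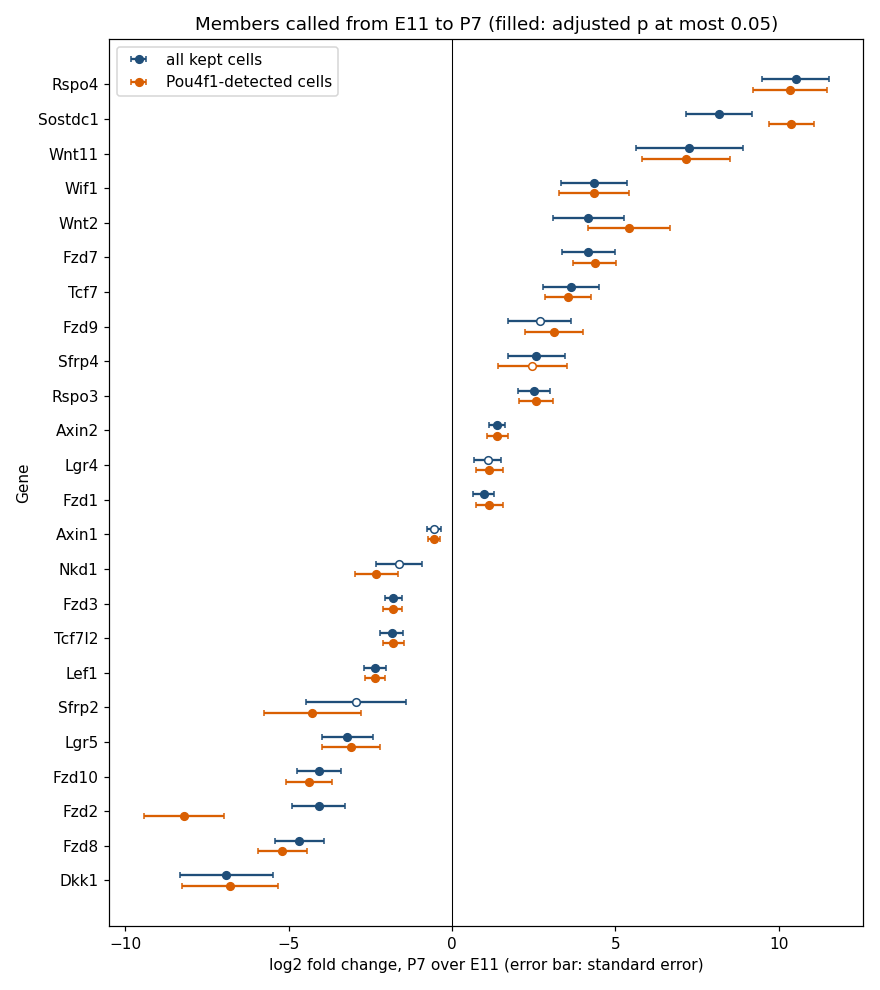
Log2 fold change from E11 to P7 with its standard error for the 24 members called over all kept cells (blue) or over Pou4f1-detected cells (orange), filled where the edgeR adjusted p is at most 0.05. Rspo4, Sostdc1 and Wnt11 lie farthest to the right and Dkk1 farthest to the left over all cells; the positions of Rspo4, Wnt11 and Dkk1, and of Fzd2 in orange, have 1 stage at 0 counts, so their fitted values are not bounds.

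Taken stage by stage, members were called at 3 of the 6 steps. From E11 to E13, 5 of 48 (10.4%) were called, beside 1.45% of all genes (0.854% higher and 0.596% lower): Rspo3, Axin2 and Sostdc1 rose, and Lef1 and Fzd8 fell. The median log2 change was 1.10 over the members and 0.01 over all genes. Sostdc1 at E13 rested on E13 plate 2, with 39.3 CPM against 3.41 on plate 1. On that plate 22 cells (16.1%) were mural or fibroblast-like, against 2.61% on E13 plate 1 and 1.29% and 0 on the E11 plates. The part of these cells, and of the ependymal and choroid markers of that plate, in the calls from E11 to E13 was not tested. Without E13 plate 2, the plate rich in ependymal and choroid markers, only the rise of Rspo3 was still called (log2 change 4.20, adjusted p = 0.0208). Lef1 was then at -1.50 (adjusted p = 0.235), Axin2 at 1.20 (0.262), Fzd8 at -4.95 (0.129) and Sostdc1 at 2.32 (0.721). Leaving out either E11 plate likewise ended the other calls (adjusted p up to 0.351 for Axin2). At the steps from E13 to E15 and from E15 to E18 no member was called in edgeR, beside 0.0917% and 0.195% of all genes called. In the same edgeR fit 8 and 18 members had an unadjusted p under 0.05, a looser threshold not comparable with those shares. DESeq2 called 1 of 43 and 5 of 42 members at these steps, beside 445 of 15422 and 665 of 15084 genes. From E18 to P4, 11 of 48 members (22.9%) were called, 3 higher and 8 lower, beside 19.6% of all genes (9.20% higher and 10.4% lower), a share near the background. With DESeq2 the members called were 20, 3 higher and 17 lower, beside 4086 of the 17453 genes (1690 higher and 2396 lower). Leaving out 1 plate moved the edgeR count both ways, lower without E18 plate 1 or either P4 plate and higher without E18 plate 2. The members had a median log2 change of -1.50 and all genes one of -0.07. At the other steps the member median was -0.49 (E13 to E15), 1.41 (E15 to E18), -0.01 (P4 to P7) and 0.21 (P7 to adult). Members low on most plates could pass the count filter on the plates where they were high, so these medians hold for the members that passed. On E18 plate 1, 23 members had their highest level, and the part of that plate in the medians was not tested. Besides the genes given above, Lrp5 (log2 change -3.46, adjusted p = 0.0103), Wnt3 (-1.96, 0.0175), Wnt7b (-4.88, 0.0182), Nkd1 (-2.85, 0.0237) and Wnt5a (-2.35, 0.0301) were lower at P4. Those 5 were no longer called without E18 plate 1, with log2 changes of -2.23 for Lrp5 (adjusted p = 0.166), -1.69 for Wnt3 (0.0879), -2.57 for Wnt7b (0.322), -0.80 for Nkd1 (0.530) and -0.99 for Wnt5a (0.374). The fall of Fzd10, Fzd2 and Rspo3 and the rise of Fzd1 and Sostdc1 were still called without it, with log2 changes of -4.39, -4.68, -2.02, 1.98 and 2.91. From P4 to P7 edgeR called 0 members, beside 0.00573% of all genes, and DESeq2 called 0 members. In edgeR 2 members had an unadjusted p under 0.05, which is a looser threshold than that of the share. From P7 to adult 1 of 48 (2.08%) was called, the rise of Fzd2 (log2 change 3.70, SE 0.86, adjusted p = 0.0418), beside 3.58% of all genes (1.76% higher). It was 3.18 without adult plate 1 (adjusted p = 0.172), 5.67 without P7 plate 1 (0.145) and 2.97 without P7 plate 2 (0.268). Oligodendrocyte markers summed to 221 and 179 CPM at P7 and 11159 and 3066 in the adult, and astrocyte markers to 157 and 118 and to 1548 and 865. The median mitochondrial share per cell was 11.9% on adult plate 1 and at most 6.56% on the other series plates. The part of these in the rise was not tested.

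The plates hold different mixtures, so the E11 to P7 comparison was repeated in cells with at least 1 UMI of Pou4f1, which marks the habenular neuron lineage and is not a member. They numbered 285 and 304 on the E11 plates and 296 and 259 on the P7 plates. Of 44 members tested, 29 (65.9%) differed among the 7 stages, beside 49.4% of all 16353 genes tested. From E11 to P7, 23 (52.3%) were called, 12 higher and 11 lower, beside 35.0% of all genes (18.8% higher and 16.2% lower). The directions were those seen over all cells: 18 members were called in both, all 18 in the same direction, which is 94.7% of the calls over all cells and 78.3% of those in Pou4f1-detected cells. These fits share cells, so the overlap is not independent support. Within these cells Tcf7l2 was at 3829 and 4103 CPM at E11 and 1048 and 1137 at P7 (log2 change -1.80, SE 0.32, adjusted p = 0.0012), and Lef1 at 674 and 647 and at 117 and 130 (-2.36, SE 0.30, adjusted p = 0.000107). Rspo3 read 1392 and 542 CPM on the E18 plates. The selected cells of E18 plate 1 were themselves mixed: progenitor markers summed to 2056 CPM, ependymal and choroid markers to 1458, astrocyte markers to 1139 and medial habenula markers to 596, against 248, 22.7, 189 and 4055 on E18 plate 2. Progenitor markers in the selected cells summed to 859 and 807 CPM at E11 and 174 and 113 at P7. Neuron markers in them summed to 15605 and 15660 CPM at E11 and 6344 and 6549 at P7, and medial habenula markers to 703 and 730 and to 7392 and 7502. The part of these shifts in the changes was not tested. Rspo4 was at 0 on both E11 plates and at 37.3 and 53.4 CPM at P7, and Wnt11 at 0 and at 4.04 and 5.89. With the limit of 3 counts in place of 0, they were 140-fold and 15.4-fold higher at P7. Dkk1 was at 3.03 and 5.00 CPM at E11 and at 0 at P7, 17.0-fold lower by the same limit. Wnt2 had 1 count at E11 and 73 at P7, a ratio of 54.2 with a 95% counting interval of 9.43 to 2171. Among the other receptors and regulators, the log2 change was -5.20 for Fzd8, -4.37 for Fzd10, 4.36 for Fzd7, 4.34 for Wif1, 3.56 for Tcf7, -3.09 for Lgr5 and 2.56 for Rspo3. Fzd2 was at 13.5 and 8.04 CPM at E11 and at 0 on all 4 P4 and P7 plates. With 104 counts at E11 and the limit of 3 counts at P7, it was 46.7-fold lower at P7. Sostdc1 had 1 count at E11 and 2304 at P7, a ratio of 1712 with a counting interval of 307 to 67644. Nkd1, uncalled over all cells, was at 25.3 and 30.6 CPM at E11 and 6.06 and 4.60 at P7 (log2 change -2.31, SE 0.65, edgeR adjusted p = 0.0155). Axin1, Sfrp2, Fzd9 and Lgr4 were also called in these cells only, the first pair lower at P7 and the last pair higher. Sfrp4 was called over all cells only. All 5 of the genes called in these cells only were lost with at least 1 plate left out. Over all alternatives run in these cells the adjusted p reached 0.109 for Nkd1, 0.226 for Axin1, 0.186 for Sfrp2, 0.127 for Fzd9 and 0.263 for Lgr4. It likewise rose above 0.05 with a plate left out for Axin2 (up to 0.07), Wnt2 (0.072), Dkk1 (0.0529), Wif1 (0.0846), Lgr5 (0.168) and Fzd1 (0.25). Whether any of these 6 differs between the cell sets was not tested.

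To see which members go with progenitor-type and which with neuron-type cells, kept cells with Sox2 but no Pou4f1 UMI were compared with cells with Pou4f1 but no Sox2 UMI. The 6 embryonic plates with at least 10 cells of each (E12, both of E13, both of E15 and E18 plate 1) entered, 11 to 154 with Sox2 and 25 to 215 with Pou4f1, and the plate was a block in the fit. Median counts per cell were 4866 to 11900 in the Sox2 cells and 7975 to 14201 in the others. For 30 members counts were too low for this test. A member could pass the filter on its counts in the Sox2 cells while very low in the Pou4f1 cells, as Wnt9a was. Rspo2, Sostdc1 and Sfrp1 were also low in the Pou4f1 cells, with medians of 1.79, 3.17 and 3.59 CPM. The split by direction and the median below therefore hold for the members that passed, not for all members. Of 30 members tested, 11 (36.7%) were called, 9 higher and 2 lower in the Sox2 cells, beside 9.67% of all 10657 genes (4.51% higher and 5.16% lower), and the median log2 difference was 1.13 over members and -0.05 over all genes. Over all genes 481 were higher and 550 lower; scaled with DESeq2 size factors they were 582 and 397 with a median of 0.07, and the members called were 10 higher and 2 lower. Rspo2 read from 31.9 to 114 CPM (median 80.0) in the Sox2 cells and from 0 to 4.12 (median 1.79) in the Pou4f1 cells, without overlap (log2 difference 5.00, SE 0.53, edgeR adjusted p = 0.000138, higher on 6 of 6 plates). Wnt9a read from 15.9 to 33.8 (median 29.2) and from 0 to 1.03 (median 0.132), also without overlap (5.20, SE 0.83, adjusted p = 0.00171, 6 of 6). Wnt3 was higher on 6 of 6 plates as well, from 23.0 to 60.7 against 6.53 to 19.9 CPM (1.81, SE 0.48, adjusted p = 0.0275). The other ligand called was Wnt5a, higher on 5 of 6 plates (1.67, SE 0.49, adjusted p = 0.0456). Of the secreted inhibitors tested, 3 were called, all higher in the Sox2 cells: Sfrp1 by 3.31 (SE 0.63, adjusted p = 0.00436, 6 of 6 plates), Sfrp2 by 2.28 (SE 0.44, adjusted p = 0.00495, 5 of 6) and Sostdc1 by 3.35 (SE 0.91, adjusted p = 0.0315, 5 of 6). The other inhibitors tested were not called: Wif1 at 0.19 (SE 0.66, higher on 3 of 6), Dkk2 at 1.76 (SE 0.90, 4 of 6) and Dkk3 at 2.48 (SE 0.84, 4 of 6). Nkd1 was higher by 1.41 (SE 0.27, adjusted p = 0.005, 6 of 6), from 30.3 to 139 against 14.2 to 55.6 CPM.

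All 3 TCF/LEF genes tested between these cells were called, 1 higher and 2 lower in the Sox2 cells, beside 4.51% and 5.16% of all genes. Tcf7l1 was higher in the Sox2 cells on 6 of 6 plates, from 11.2 to 121 CPM (median 53.5) against 3.09 to 49.0 (median 5.40), a log2 difference of 1.89 (SE 0.48, edgeR adjusted p = 0.0225). Tcf7l2 was lower in them on 5 of 6 plates, with medians of 1748 and 3413 CPM (log2 difference -0.85, SE 0.19, adjusted p = 0.0127). Lef1 was also lower on 5 of 6, with medians of 174 and 352 CPM (-1.07, SE 0.25, adjusted p = 0.0138). Rspo3 was not called (0.55, SE 0.39) and was higher in the Sox2 cells on 3 of 6 plates. Axin2 was higher on 6 of 6 plates without passing the test (0.55, SE 0.26, adjusted p = 0.217), and Ctnnb1 lower on 5 of 6 (-0.28, SE 0.16, adjusted p = 0.338). The 10 progenitor markers, of which Sox2 is one, summed to 1524 to 6274 CPM in the Sox2 cells and 249 to 1168 in the others, and the 10 neuron markers to 1520 to 8733 and 8541 to 13603. Ependymal and choroid markers reached 7409 CPM in the Sox2 cells of E13 plate 2, and microglial markers 4205 in those of E15 plate 2. Astrocyte markers were higher in the Sox2 cells on every plate, 487 to 1884 CPM against 230 to 641, and on E18 plate 1 oligodendrocyte markers read 577 against 109. Mural or fibroblast markers read 767 against 12.9 on E15 plate 1 and 695 against 163 on E13 plate 1. The part of these cell types in the differences was not tested. Without E18 plate 1, which gave 154 of the Sox2 cells, Rspo2, Wnt9a, Sfrp1, Nkd1, Wnt3 and Sostdc1 were still called, 6 of the 11, and the other 5 were not: Tcf7l2 (-0.72, adjusted p = 0.0603), Lef1 (-0.96, 0.0603), Tcf7l1 (1.98, 0.0796), Sfrp2 (2.20, 0.0535) and Wnt5a (1.90, 0.147). Without E13 plate 2, 10 of the 11 could be tested (not Sostdc1), and Wnt3 (adjusted p = 0.102) and Wnt5a (0.164) were no longer called. Without E13 plate 1, Tcf7l2 (0.0595), Wnt3 (0.0623), Sostdc1 (0.054) and Wnt5a (0.0966) were lost. Without the E12 plate Sostdc1 could not be tested and Wnt3 (0.0591) and Wnt5a (0.124) were lost. Without E15 plate 2, Wnt3 was lost (0.061). With Hes5 in place of Sox2 as the progenitor mark, enough such cells were found only on E11 plate 2, E13 plate 2 and E18 plate 1 (14, 15 and 35). There edgeR called 0 of 26 members and 68 of 10282 genes in all. At the looser unadjusted p under 0.05 in edgeR there were 7 members. This fit differs in its plates as well as in the mark.

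**Figure D4:**
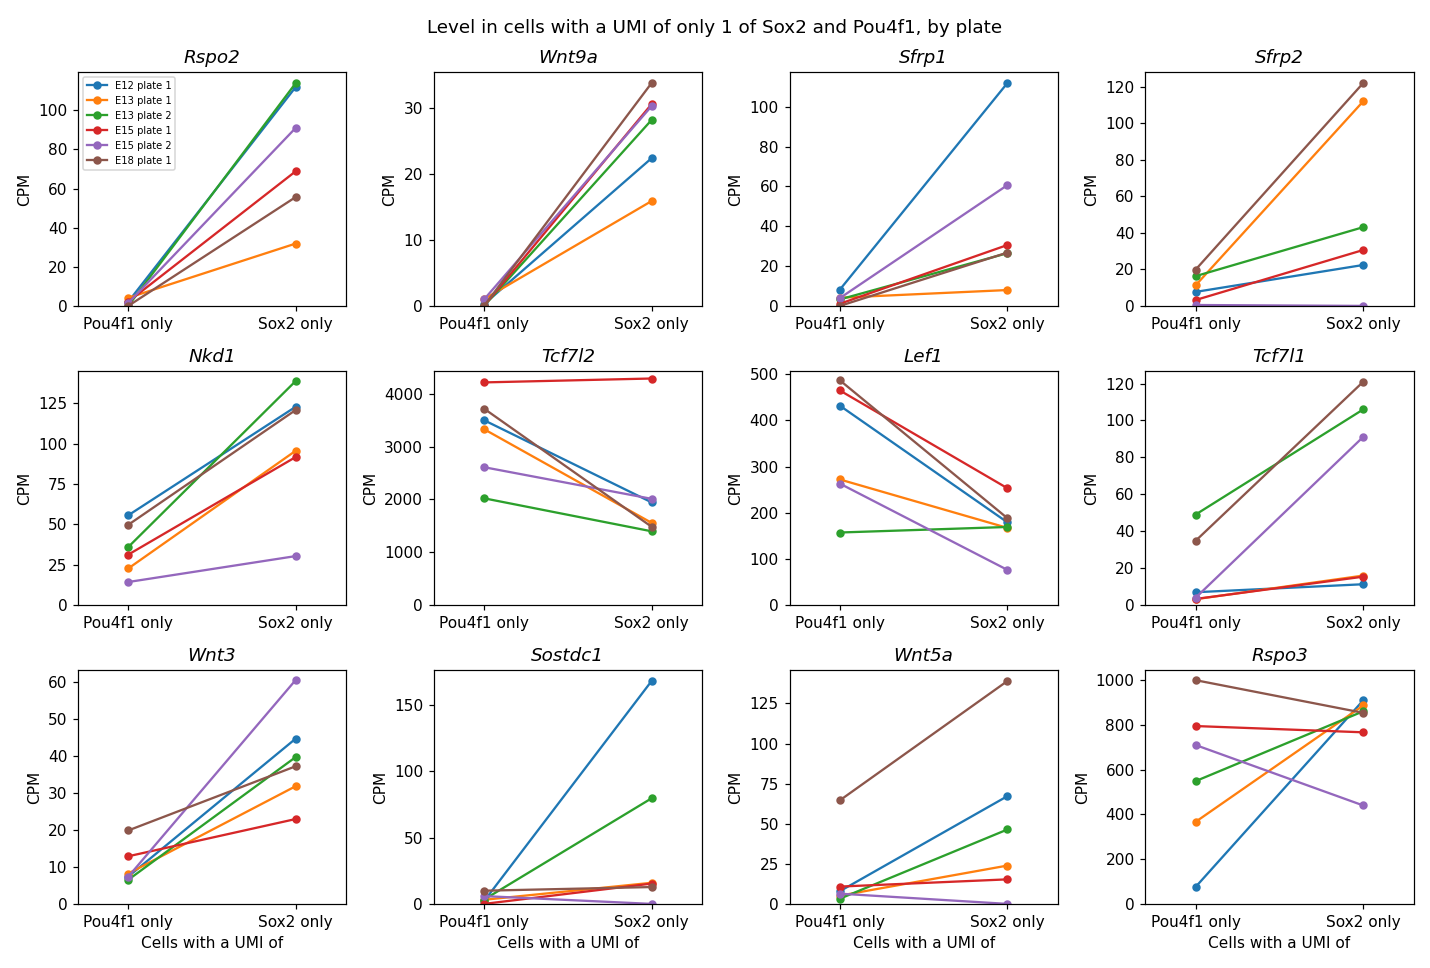
Levels in CPM of 12 members in cells with Pou4f1 but no Sox2 UMI (left of each panel) and in cells with Sox2 but no Pou4f1 UMI (right), with 1 line for each of the 6 plates. Every line rises to the right for Rspo2, Wnt9a, Sfrp1, Nkd1, Tcf7l1 and Wnt3, and 5 of 6 lines fall for Tcf7l2 and Lef1.

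The left and right habenula at E18 were compared in the C57BL/6 set. No member passed the test: of 41 tested, 0 passed the threshold in edgeR, with 2 at an unadjusted p under 0.05, and DESeq2 called 0. Over all 15489 genes edgeR called 0 (0%), with 182 at an unadjusted p under 0.05. Tcf7l2 was at 1627 and 1372 CPM on the left plates, 1545 and 1669 on the right and 2087 where both sides were taken. Lef1 was at 196 and 242 on the left, 217 and 272 on the right and 145 with both sides, and Rspo3 at 258 and 331, 348 and 408, and 437. These sides overlapped for Tcf7l2 and Lef1 and not for Rspo3, whose difference was 0.34 (SE 0.20, adjusted p = 1) on the log2 scale, right over left. The 2 members with an unadjusted p under 0.05 were Fzd1, at 43.4 and 30.3 CPM on the left and 57.7 and 57.1 on the right (log2 difference 0.59, SE 0.22), and Lgr5, at 6.76 and 8.11 and at 2.90 and 3.17 (-1.29, SE 0.55), both with an edgeR adjusted p of 1. Erythroid markers (7 of 8 in the table) summed to 19048 and 17220 CPM on the left plates and 3410 and 266 on the right, and their part in any difference was not tested. On data simulated for this comparison 98% of genes changed 4-fold and 45% of those changed 2-fold were recovered. Here too the changed genes were drawn only from genes above a minimum of summed counts. These shares are therefore not the recovery for members with few counts, which was not tested.

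Clusters of cells, made without any member among the genes used, show where the members are found. These levels pool cells over plates and are a description with no test, and names come from marker lists. Wif1 was at 432 CPM in series cluster 7 (183 cells), led by Gad1, Pde11a, Cck and Stum and holding both medial and lateral habenula markers, and at no more than 87.8 in any other series cluster of at least 50 cells. In the left and right set it was at 369 CPM in medial habenula-like cluster 1 (143 cells), led by Kcng4, Pde11a and Dock5, and at 98.5 or less elsewhere. Rspo4 was at 131 CPM in medial habenula-like cluster 11 (166 cells, 94.6% of them from adult plate 2), 79.9 in medial habenula-like cluster 2 and 42.0 in cluster 7. Sostdc1 favoured other medial habenula-like clusters, with 323 CPM in cluster 13, 285 in cluster 14 and 228 in cluster 1.

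Among series clusters of at least 50 cells, to which the rankings here are limited, Rspo3 was high in 5 embryonic ones. It read 1358 CPM in unnamed cluster 15, led by Ttr, Sulf1 and Clic6, then 1125 in intermediate progenitor-like cluster 18, 1003 in cluster 4, led by Edaradd, Gm11266 and Loxl1, 943 in cluster 5, led by Dmrta1, Shisa2 and Klhl35, and 822 in progenitor-like cluster 16. By plate, 69.9% of the cells of cluster 15 came from E18 plate 1 and 58.1% of those of cluster 18 from E13 plate 2. Rspo2 was narrower among these larger clusters, at 187 CPM in cluster 15, 117 in cluster 16 and 19.1 or less in the others. Wnt8b (78.3 CPM), Wnt9a (44.9), Fzd2 (126) and Fzd10 (128) were highest in cluster 16. Wnt5a (175), Sfrp2 (234), Dkk3 (136) and Tcf7l1 (191) were highest in astrocyte-like cluster 17. Tcf7l2 was at 4917 CPM in neuron-like cluster 9, led by Tfap2b, and at 4902 in intermediate progenitor-like cluster 8 and 4734 in cluster 5. Lef1 was also highest in cluster 9 (825 CPM), followed by cluster 0 (649) and endothelial-like cluster 19 (620). That endothelial-like cluster, of 58 cells (60.3% from adult plate 2), further held the highest levels of Nkd1 (300 CPM), Fzd6 (285) and Tcf7 (70.7).

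**Figure D5:**
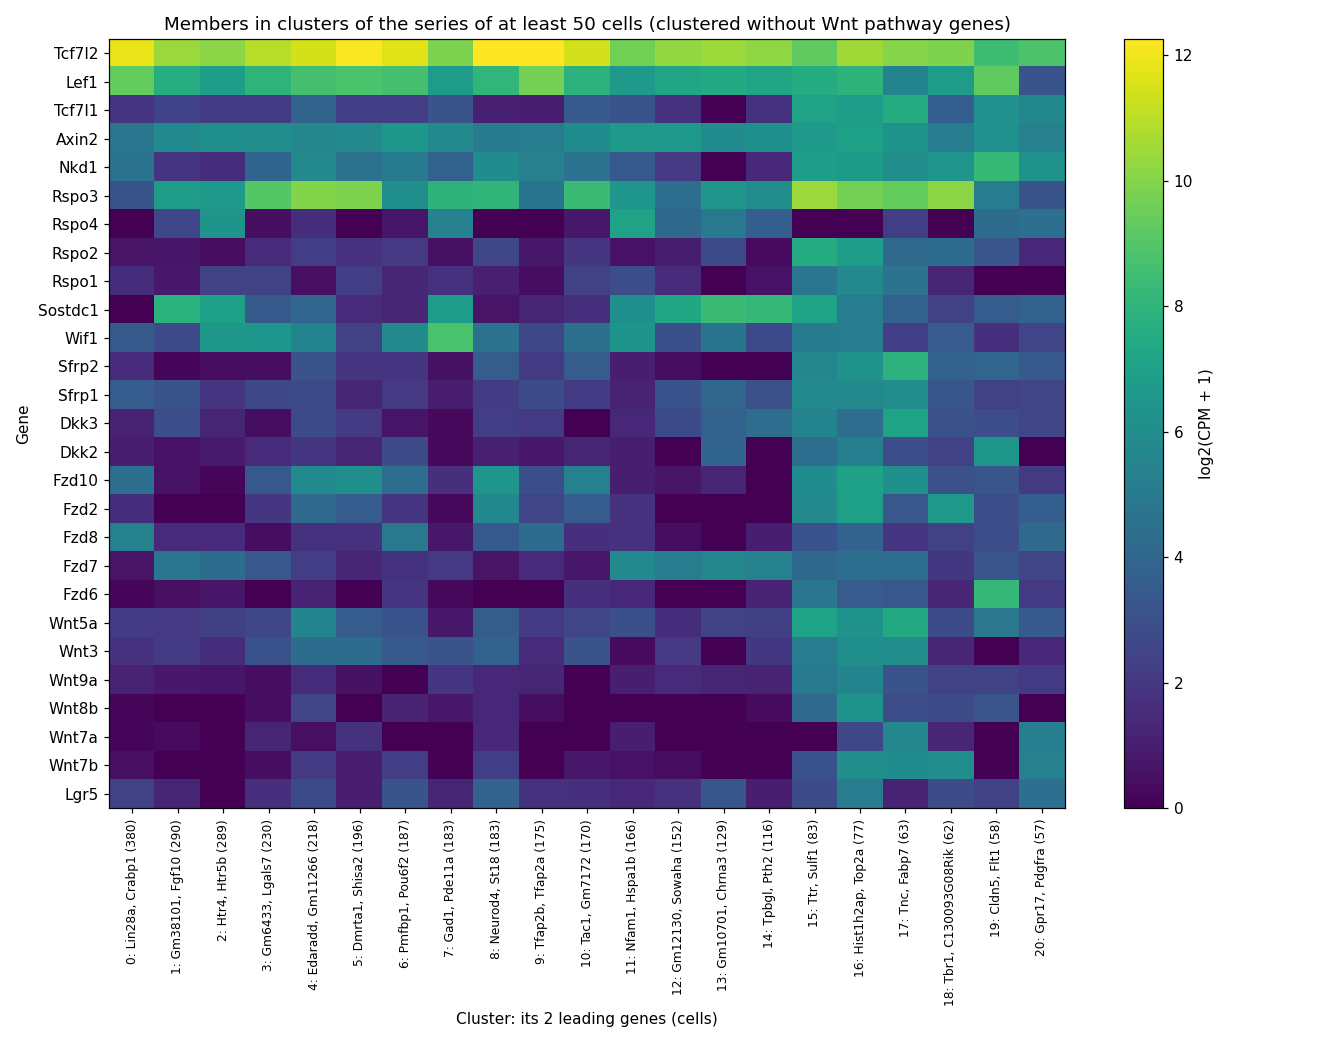
Levels of 27 members, as log2(CPM + 1), in the 21 series clusters of at least 50 cells, each given with its 2 leading genes and, in parentheses, its number of cells. Tcf7l2 is high across clusters, Wif1 stands out in cluster 7, Rspo2, Wnt8b and Wnt9a in clusters 15 and 16, and Fzd6 and Nkd1 in endothelial-like cluster 19.

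The tables of unspliced transcripts give another readout of the members, as a share of a gene's UMIs and without a test. Over all genes 17.7% to 26.4% of UMIs were unspliced on a plate. Lef1 had 42.9% and 38.3% at E11 and 64.0% and 61.0% in the adult, with 54.9% and 58.4% at P7, while its level went down. Tcf7l2 ranged from 11.6% to 22.2% over the plates. Rspo3 lay between 35.6% and 62.9% and Znrf3 between 58.6% and 80.6%, whereas Axin2 (1.69% to 5.38%) and Ctnnb1 (0.572% to 2.93%) had few UMIs counted as unspliced. With reads near the 3′ end, these shares are not the fraction of a gene's transcripts that are spliced. Fzd1, whose coding sequence lies in 1 exon, had 0% on every plate with a value. Of the 60 members, 24 overlap another annotated gene in GENCODE M21, and since strand use in counting is not given, such overlaps are uncertain. Most of the overlapping genes of the leading members were rows of their own with low levels: Rspo4os had 1 count over all series plates, and Gm48159 and Gm20276, which overlap Rspo3, reached at most 6.78 and 2.66 CPM. Gm42449 and Gm43352, which overlap Lef1, reached 4.70 and 4.34 CPM, and Ppnr, within Tcf7l2, reached 3.26.

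Of a list of other pathway genes, 51 were tested. From E11 to P7, 21 of them (41.2%) were called, 9 higher and 12 lower, with a median log2 change of -0.18. Of all genes, 28.6% were called (15.4% higher and 13.2% lower). The genes named for this comparison are examples picked outside the naming rule, and their calls in alternative fits are not given. Wls, which carries Wnt ligands to the cell surface, was at 44.1 and 24.9 CPM at E11 and 241 and 268 at P7 (log2 change 2.93, SE 0.26, edgeR adjusted p = 3.95e-05). Porcn, the enzyme that adds the lipid to Wnt ligands, rose by 1.14 (SE 0.26, adjusted p = 0.00741). The planar polarity genes Vangl2 and Vangl1 moved apart, Vangl2 from 233 and 252 CPM to 14.8 and 24.3 (-3.59, SE 0.31, adjusted p = 3.49e-05) and Vangl1 from 9.66 and 10.6 to 128 and 159 (3.87, SE 0.53, adjusted p = 0.000479). Ror1, a receptor for Wnt5a, rose by 4.23, and Draxin, a secreted guidance protein and Wnt inhibitor, fell by 5.17. The Groucho-type co-repressors Tle1 and Tle3 fell by 1.45 and 1.78, and Tle2 rose by 1.90. In the comparison of Sox2 with Pou4f1 cells, 5 of 46 were higher and 3 lower, beside 4.51% and 5.16% of all genes. Lrp4 (3.38), Sp5 (2.89, a direct target of beta-catenin signalling), Ccnd1 (2.72), Celsr1 (2.55) and Ror1 (1.65) were higher in the Sox2 cells, and Apc2, Celsr3 and Ctnnbip1 were lower.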

How the data were processed

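Plates of mouse habenula cells were sequenced with CEL-seq2. The deposited tables hold expected counts per gene and well, which the authors corrected for UMI collisions; solving that correction for 4096 possible UMIs gave whole molecules for 100% of values (tolerance 1e-06), and 46.1% were whole as deposited. Counts had been planned for, so the expected counts were summed per plate and rounded before the tests. Per the submitters' processing notes the reads were trimmed with Trim Galore and aligned with STAR 2.5.3a to mm10; whether counting used strand is not stated. Spike-in rows were left out.

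Cells with at least 1000 UMIs, at least 500 genes and at most 20% mitochondrial counts were kept. Doublets were not called; an alternative dropped cells whose UMIs exceeded 3 medians of the plate. Sums over kept cells per plate, all genes together, were tested in edgeR 4.0.16 (R 4.3.3; TMM, filterByExpr, quasi-likelihood) with Benjamini-Hochberg adjustment at 0.05; the 7 stages with 2 plates shared 1 fit. DESeq2 1.42.0 was an alternative. For cells split by Sox2 and Pou4f1 the plate was a block. Clusters (leidenalg 0.10.2, resolution 1) used 2000 variable genes and 30 components without members or other pathway genes; a name needed 3 markers. Intervals (95%) and the limit for a count of 0 (3 counts) cover counting error only. Folds against a count of 0 use this limit and the observed level of the other group, so they are not strict bounds. The tests were checked on simulated counts. Same-numbered plates were not paired by the labels or the data, so stages were fitted without a block.

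Members and gene lists were chosen with earlier results of these data known. In each comparison the rule for naming takes the members called, up to the 15 of largest change, a fixed set of members called or not, and for levels the 4 highest of each role. Clusters of under 50 cells are not given.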

Additional observations from a re-analysis of the deposited data

How the results depend on the processing

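Among the called changes of single members, 0 reversed under the alternatives run. Of 132 called results, those without a direction included, 62 stayed past the threshold throughout and 70 were lost in at least 1. Counts of members called moved most at single stage steps. From E11 to E13, where 5 were called, DESeq2 gave 13, no filter on low counts 15 and the 4 plates alone 1. From E13 to E15 (0) DESeq2 gave 1 and no filter 7, and from E15 to E18 (0) they gave 5 and 15. From E18 to P4 (11) they gave 20 and 25, and the 4 plates alone 5. From P4 to P7 (0), no filter and the 4 plates alone each gave 2. From P7 to adult (1) DESeq2 gave 5, no filter 13, cells without very high UMIs 2, the 4 plates alone 2, and leaving out E13 plate 2, E18 plate 1 and adult plate 1 (chosen after seeing the data) 5. From E11 to P7 (19, with 11 higher and 8 lower), the 4 plates alone gave 28 of 39 members tested, 13 higher and 15 lower. Between Sox2 and Pou4f1 cells (11), a detection minimum of 2 UMIs gave 6, and Hes5 in place of Sox2, on fewer and partly other plates, gave 0. The cause of these shifts was not tested, and unfiltered fits test more genes. Counts of members in this section are not set beside counts over all genes, so they describe the fits and are no result about the members.

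With 1 plate left out at a time, counts ran from 21 to 44 for any difference among stages (33), 1 to 4 from E11 to E13, 0 to 0 from E13 to E15, 0 to 12 from E15 to E18, 2 to 25 from E18 to P4, 0 to 0 from P4 to P7, 0 to 5 from P7 to adult and 13 to 16 from E11 to P7 (19). The highest values from E15 to E18 and from E18 to P4 came without E18 plate 2, and the lowest for any difference without E11 plate 2. In Pou4f1-detected cells they ran from 21 to 37 (29) and 15 to 17 (23), between sides 0 to 0, and between Sox2 and Pou4f1 cells 6 to 11. A lone plate of a stage was assumed to vary like the other stages.

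The plate number as a replicate block gave 3 calls from E11 to E13, 11 from E18 to P4 and 17 from E11 to P7. Deviations of same-numbered plates correlated from -0.373 to 0.26 over 21 pairs of stages, so the numbers were not read as pairing. Without the plate block the comparison of Sox2 and Pou4f1 cells called 3, of only 16 members tested there against 30 with it.

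Depth limits the ligands most: a count of 0 allows 0.387 to 3.95 CPM, and 12 members could not be tested.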

Other observations

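Whether the difference between Sox2 and Pou4f1 cells itself differed between the later plates (E15 and E18) and the earlier ones (E12 and E13) was tested after the data were seen, with edgeR's quasi-likelihood test. Of 10657 genes 2 passed, and of 30 members 0 passed, with 4 at an unadjusted p under 0.05. Rspo3 was one of these: its log2 difference, Sox2 over Pou4f1 cells, was 1.59 on the earlier plates and -0.41 on the later ones (SE of the change 0.56, edgeR adjusted p = 0.326). Wnt5a changed the same way, by -2.03 (SE 0.85, adjusted p = 0.725). Dkk3 changed the other way, by 3.81 (SE 1.46, adjusted p = 0.639), as did Wnt4, by 4.69 (SE 1.95, adjusted p = 0.729). In the Sox2 cells Rspo3 read 910 CPM at E12, 887 and 861 at E13, 767 and 440 at E15 and 854 on E18 plate 1. In the Pou4f1 cells of the same plates it read 76.2, 367 and 549, 795 and 710, and 1000.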
